A study of Rattus norvegicus with 6 samples.

Results

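The distal 3 Mb of each autosome were the stretch of chromosomes 1 to 20 that ends at the highest CpG position listed in any of the 6 samples. Members were windows of 1000 nucleotides (1 kb tiles) inside that stretch with at least 5 CpGs covered in all 6 samples and at least 50 reads in each sample over all listed CpGs. The rule used position and coverage and no methylation level. It gave 21610 tiles of 936431 tiles in all chromosomes, and the other 908929 tiles of chromosomes 1 to 20 were the rest that they were compared with.

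WGBS, in which bisulfite turns unmethylated cytosines but not methylated ones into uracil so that sequencing reads out methylation at each CpG, was made from hippocampi of CD1 Sprague-Dawley rat pups at postnatal day 15. In the iron-deficient group (n = 3) the dams were fed 4 ppm iron from gestational day 2 to postnatal day 7 and 200 ppm iron afterwards. In the iron-sufficient group (n = 3) the dams were fed 200 ppm iron throughout. The dams of all 6 pups were thus on the 200 ppm diet when the tissue was taken. The study states that the low-iron diet nevertheless left the hippocampus short of iron at postnatal day 15. The sex and litter of the pups are not given in the labels or the methods. The study asked whether iron deficiency before and just after birth changes hippocampal DNA methylation. Hippocampal tissue holds several cell types, so a methylation level is a mean over them, and the labelled tissue could not be checked against marker genes because no RNA was measured here.

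The sum of coverage over all CpGs ranged from 432692526 to 780127386 reads per sample. Distal tiles had a median coverage per CpG of 28.25, 28.75 and 37.2 in iron-sufficient samples 1 to 3 and 37.2, 43.8 and 23.4 in iron-deficient samples 1 to 3. A methylation level is the methylated reads as a percent of all reads over the CpGs of a tile that every sample covers. Reads of a tile, region or promoter are summed over its CpGs throughout, so a read that spans several CpGs is counted at each. The median SD of a distal tile between the 3 pups of a group was 9.25 percentage points. Counting alone would give 2.43 percentage points if all these counts were independent. Counts of the same read are not, so this value can be too low, and it covers counting error only.

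In mammals most CpGs are methylated, whereas CpG islands, short stretches where CpGs are dense and which often hold the start of a gene, are mostly free of methylation. Chromosome ends of many mammals are rich in genes and CpGs, and the last stretch before the telomere repeats is called subtelomeric. Clusters of developmental genes such as the Hox genes are known for broad stretches of low methylation in cells where Polycomb proteins keep them silent.

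To show what lies in these chromosome ends, promoters from RefSeq (build GRCr8, 250 bases before to 50 bases after a gene's start) were placed on the CpG positions of the files (build rn4) by the spacing of their CpGs. The motif searched was the dinucleotide CG, which reads the same on both strands and occurs in 94.5% of the 33469 RefSeq promoters. A promoter was placed if it held at least 8 CpGs, as 15918 did, and if its run of gaps between CpGs occurred at 1 place in all chromosomes. The 13562 promoters placed in this way lay on the chromosome that RefSeq gives in 99.7% of cases, although the chromosome was not used for matching. Of 10398 autosomal genes with a placed promoter that passed the tile filter, 358 lay in the distal 3 Mb.

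The 250 bases before the start of 4 of these genes are printed with each CG in capitals, because they span the range of methylation found in the chromosome ends. Gad2 makes the GABA-producing enzyme GAD65 of inhibitory neurons, Usp36 encodes a deubiquitinating enzyme, Cdcp1 encodes a transmembrane glycoprotein of epithelial cells, and Krt4 encodes a keratin of stratified epithelia. The sequences are from RefSeq GRCr8 on the strand of the gene, 5′ to 3′, and the positions are those of the first and last printed CpG in rn4.
Gad2 (+ strand, chr17:96259220-96259423): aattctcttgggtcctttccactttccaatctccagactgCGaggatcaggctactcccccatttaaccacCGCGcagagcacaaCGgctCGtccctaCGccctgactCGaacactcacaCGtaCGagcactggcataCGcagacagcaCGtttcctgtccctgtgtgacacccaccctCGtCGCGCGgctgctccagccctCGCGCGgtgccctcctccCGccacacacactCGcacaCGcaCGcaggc
Usp36 (- strand, chr10:108296395-108296603): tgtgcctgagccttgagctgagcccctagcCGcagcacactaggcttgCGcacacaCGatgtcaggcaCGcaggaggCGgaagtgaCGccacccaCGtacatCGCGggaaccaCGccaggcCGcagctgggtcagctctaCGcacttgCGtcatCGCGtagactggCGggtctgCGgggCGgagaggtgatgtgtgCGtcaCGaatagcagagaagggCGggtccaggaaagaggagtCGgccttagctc
Cdcp1 (- strand, chr8:127988667-127988834): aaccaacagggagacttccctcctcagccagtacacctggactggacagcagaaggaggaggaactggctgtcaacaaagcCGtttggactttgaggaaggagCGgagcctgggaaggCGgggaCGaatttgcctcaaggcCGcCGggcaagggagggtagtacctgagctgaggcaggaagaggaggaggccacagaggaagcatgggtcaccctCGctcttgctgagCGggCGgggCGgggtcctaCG
Krt4 (- strand, chr7:140628160-140628332): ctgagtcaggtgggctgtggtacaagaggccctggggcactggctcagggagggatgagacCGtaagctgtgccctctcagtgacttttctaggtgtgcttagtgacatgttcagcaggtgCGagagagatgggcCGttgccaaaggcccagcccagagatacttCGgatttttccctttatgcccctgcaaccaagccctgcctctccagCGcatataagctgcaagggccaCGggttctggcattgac
The printed Gad2 stretch held 22 CpGs with a median methylation of 1.58% over all reads of the 6 samples. The printed Krt4 stretch held 6 CpGs with a median of 84.6%, and Cdcp1 lay between them with 11 CpGs and a median of 27.4%. Single CpGs of Cdcp1 reached 64.8%, whereas the highest of the 22 printed CpGs of Usp36 had 10.9% over all reads. In iron-sufficient sample 2 the printed Usp36 stretch had 17.8%, and in each other sample under 1%.

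The distal tiles were less methylated than the rest of the autosomes in every pup. Mean methylation of the distal tiles was 70.5%, 70.4% and 70.9% in the iron-sufficient samples and 70.7%, 71.8% and 71.5% in the iron-deficient samples. The rest of the autosomes had 73.1%, 72.9% and 73.5% in the iron-sufficient samples and 73.6%, 74.3% and 74.2% in the iron-deficient samples. All distal values thus lay below all values of the rest. The difference within a sample was -2.65 ± 0.15 percentage points (SD, n = 6) and was negative in 6 of 6 samples (exact two-sided sign-flip test, p = 0.03125, which is the smallest p that 6 samples allow, and 0.03125 after Benjamini-Hochberg adjustment over 10 such contrasts). All samples share the same tiles, so this p and the sign-flip p-values below measure agreement between pups. They do not measure the spread between chromosome ends, which is given below. The size of the difference depended on how tiles were weighed. It was -1.51 percentage points when each chromosome weighed the same, -4.13 with at least 10 CpGs per tile, and -6.01 when reads were summed over tiles.

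**Figure D1:**
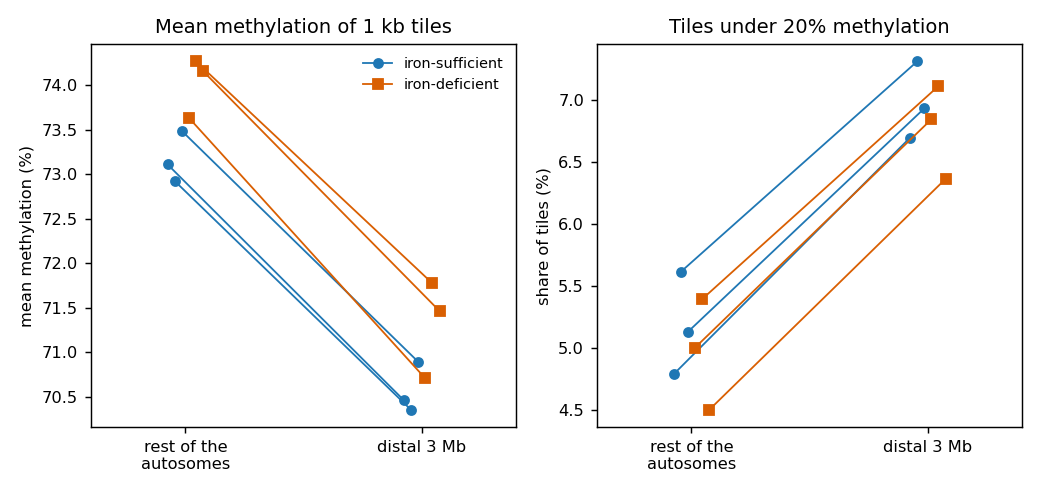
Mean methylation of 1 kb tiles (left, percent) and the share of tiles under 20% methylation (right, percent) in the rest of the autosomes and in the distal 3 Mb, 1 line per sample, with iron-sufficient samples in blue and iron-deficient samples in orange; the vertical axes do not start at 0. In all 6 samples methylation was lower in the distal 3 Mb (a mean difference of -2.65 percentage points) and the share of tiles under 20% was higher there (by 1.81 percentage points).

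Tiles of high methylation were fewer and tiles of low methylation more frequent at the chromosome ends. Tiles under 20% methylation were 6.88% of the distal tiles and 5.07% of the rest, a difference of 1.81 ± 0.08 percentage points (SD, n = 6, higher in 6 of 6 samples, exact sign-flip p = 0.03125). It depended on the settings, with 3.58 percentage points in the last 1 Mb, 0.919 in the last 5 Mb and 3.12 with at least 10 CpGs per tile. Tiles of 20% to under 50% were 11.2% of the distal tiles and 9.85% of the rest. Tiles of 80% or more were 47.1% of the distal tiles against 51.1% of the rest.

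The chromosome ends did not hold more CpGs than their length would give, but tiles that passed the filter held more CpGs there than in the rest. The distal 3 Mb held 492997 of 21344245 listed autosomal CpGs, which is 2.31% of the CpGs on 2.35% of the length. Distal tiles held 1.05 times as many CpGs listed per sample as the rest (higher in 6 of 6 samples). This ratio was 0.988 within the last 1 Mb and 1.10 within the last 5 Mb, so it was not particular to 3 Mb. Tiles with at least 20 CpGs were more frequent: 5.34% of distal tiles held 20 to 39 CpGs against 3.92% of the rest, and 1.88% held 40 or more against 1.28%. Coverage per CpG was 1.03 times that of the rest and was higher in 6 of 6 samples. Tiles of both parts had been chosen on their number of CpGs and on coverage, so no p-value is given for either ratio. The part of coverage in the methylation difference was not tested.

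Lower methylation of the distal tiles was found in each class of CpG density. Among tiles of 5 to 9 CpGs the distal mean was 75.2% against 76.4% in the rest, a difference of -1.22 ± 0.19 percentage points. In tiles of 10 to 19 CpGs it was 70.3% against 73.1% (-2.78 ± 0.16), and in tiles of 20 to 39 CpGs 49.8% against 53.5% (-3.76 ± 0.17). Tiles of 40 or more CpGs had 5.70% against 6.70% (-1.01 ± 0.15). Each of these 4 differences was negative in 6 of 6 samples (SD over n = 6 samples, exact sign-flip p = 0.03125). With the rest weighted to the CpG density of the distal tiles, the overall difference was -1.86 percentage points.

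Tiles off placed promoters showed the difference too, although these tiles still hold the starts of genes whose promoter was not placed. Tiles on a placed promoter were 2.01% of the distal tiles and 1.4% of the rest. Off placed promoters the distal mean was 72.1% and that of the rest 74.4%, a difference of -2.32 ± 0.16 percentage points (SD, n = 6, negative in 6 of 6 samples, exact sign-flip p = 0.03125).

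Tiles at the opposite ends of the chromosomes were more methylated. Tiles in the first 3 Mb (n = 16099) had a mean of 74.1%, which was above the remaining tiles by 0.53 ± 0.11 percentage points (SD, n = 6, 6 of 6 samples, exact sign-flip p = 0.03125). The distal 3 Mb minus the first 3 Mb gave -3.18 ± 0.24 percentage points (SD, n = 6, negative in 6 of 6 samples, exact sign-flip p = 0.03125). Tiles of the first 3 Mb held a mean of 9.67 shared CpGs, beside 10.8 in the distal tiles and 9.99 in the rest. Neither difference was matched for CpG density, and the part of density in them was not tested. Many rat chromosomes have their centromere near the low end of the coordinates, so that the ends compared are not of the same kind.

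The 20 chromosome ends differed among themselves. In 14 of them every sample lay below the rest of its own chromosome, in 5 (chromosomes 4, 9, 16, 18 and 19) every sample lay above it, and on chromosome 6 the samples fell on both sides. The SD over the 20 ends was 4.25 percentage points, and over all 856 windows of 3 Mb cut backwards from the chromosome ends it was 3.41. Of the 20 ends, 12 lay below the lower quartile of all windows (72.5%) and 3 above the upper quartile (76.4%).

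Chromosome 7 had the least methylated end. Its samples had 61.6%, 62.3% and 62.6% in the iron-sufficient group and 61.3%, 62.5% and 62.6% in the iron-deficient group, whereas the rest of chromosome 7 had a mean of 73.2%. The difference was -11.1 ± 0.67 percentage points (SD, n = 6), and 15.3% of its 1339 tiles were under 20% methylation against 5.52% on the rest of the chromosome. The window was the least methylated of 48 on chromosome 7 and the 4th lowest of all 856. Without chromosome 7 the difference between distal tiles and the rest was -2.10 percentage points.

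The end of chromosome 10 came next. It had a mean of 68.0% over 2109 tiles, the most of any end, and a difference of -3.12 percentage points from the rest of its chromosome. The ends of chromosomes 3, 12 and 8 had 68.7%, 69.7% and 69.8%. Chromosome 14 had 69.8% over 426 tiles, a difference of -4.41 percentage points from its rest, with 10.4% of tiles under 20% methylation.

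The ends of chromosomes 16 and 18 were the most methylated and the poorest in tiles. Chromosome 18 had 80%, 78.7% and 81.3% in the iron-sufficient samples and 81.3%, 81.0% and 81.8% in the iron-deficient samples over 295 tiles, 6.27 ± 0.89 percentage points above its rest (SD, n = 6). Chromosome 16 had a mean of 79.8% over 248 tiles, the fewest of any end, and lay 5.68 ± 1.26 percentage points above its rest. Only 2.22% and 2.49% of the tiles of these 2 ends, on chromosomes 16 and 18, were under 20% methylation. Across the 20 ends, mean methylation was lower where tiles held more CpGs (Pearson r = -0.80, Spearman rho = -0.84, with the libraries shared by all ends), and across all 856 windows these values were -0.66 and -0.62.

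**Figure D2:**
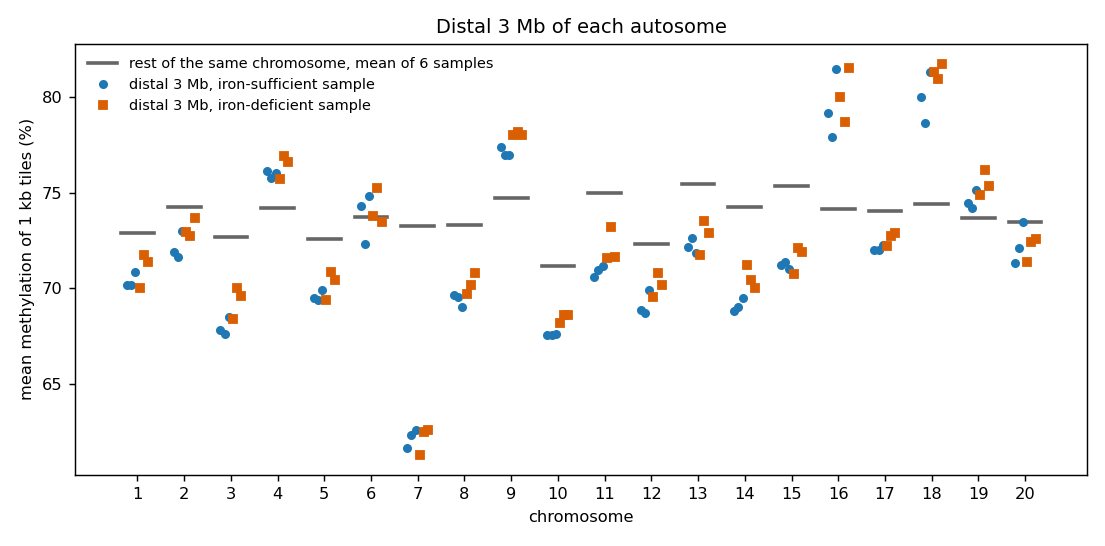
Mean methylation of 1 kb tiles (percent, axis from about 60) in the distal 3 Mb of chromosomes 1 to 20, 1 point per sample (blue circles iron-sufficient, orange squares iron-deficient), with grey bars for the rest of the same chromosome as the mean of 6 samples. Chromosome 7 lies lowest at 62.2% and chromosomes 16 and 18 lie highest at 79.8% and 80.7%.

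Methylation did not fall steadily toward the chromosome end. In bins of 0.5 Mb it was lowest at 1 to 1.5 Mb from the end, with 67.9% over 3396 tiles, and rose to 72.6% in the last 0.5 Mb (2325 tiles). At 2.5 to 3 Mb it was 72.4%, the share of tiles under 20% methylation having fallen from 9.79% at 1 to 1.5 Mb to 4.26%. Just beyond the ends, the bins from 3 to 4.5 Mb had 72.2%, 72.0% and 72.6%, also below the 73.6% of the whole rest. They held 11.4, 11.7 and 11.7 shared CpGs per tile, beside 10.8 in the distal tiles. Neither trait thus stopped at 3 Mb. All 20 chromosomes gave tiles to each of these bins. Without the stretch of chromosome 7 described next, the mean at 1 to 1.5 Mb was 69.5% and still the lowest in each sample, but the share under 20% was 7.66%, below the 9.29% at 0.5 to 1 Mb. This alternative was chosen after seeing the data. The number of tiles per 0.5 Mb decreased toward the end, from 4865 at 2.5 to 3 Mb to 2325 in the last bin, while median coverage per CpG in iron-sufficient sample 1 was 28.4 and 27.9.

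**Figure D3:**
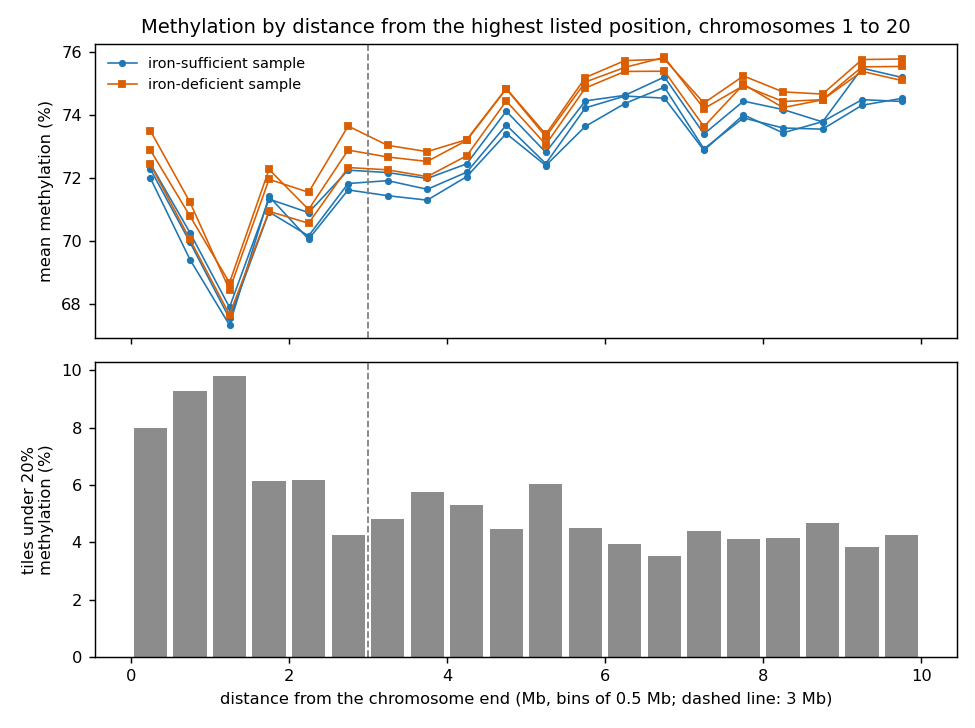
Mean methylation of 1 kb tiles in each sample (upper panel, percent, axis not from 0) and the share of tiles under 20% methylation as the mean of 6 samples (lower panel, percent) in bins of 0.5 Mb from the highest listed position of chromosomes 1 to 20, with a dashed line at 3 Mb. All 6 samples have their lowest value at 1 to 1.5 Mb, where 9.79% of tiles were under 20%, or 7.66% without the chromosome 7 stretch.

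The lowest values of chromosome 7 lay in a stretch that holds the Hoxc genes. These genes encode transcription factors that set positional identity along the body axis. In bins of 100 kb with at least 20 tiles, the bin at 1.2 to 1.3 Mb from the end (chr7:141702535-141802534) was the least methylated of 16733 autosomal bins. It had 9.96%, 7.90% and 7.48% in the iron-sufficient samples and 9.14%, 8.59% and 9.87% in the iron-deficient samples over 71 tiles and 1388 CpGs, so that the 2 groups overlapped. Of the 71 tiles, 43 were under 20% in all 6 samples, and no tile had a mean above 36.7%. The next lowest of these bins, outside the chromosome ends, had 9.0%.

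The nearest placed promoters were those of Cistr, 209 kb to one side of this bin, and of LOC102547409, 21.1 kb to the other side. In RefSeq GRCr8 the protein-coding genes between them are Hoxc13, Hoxc12, Hoxc11, Hoxc10, Hoxc9, Hoxc8, Hoxc6, Hoxc5, Hoxc4 and Tbcal1, together with the microRNA genes Mir196a and Mir615. No Hoxc promoter was itself placed, so the stretch is named from its neighbours, and gene order in rn4 was taken to be that of GRCr8. Between the flanking promoters, 330 kb apart, 60 of 200 tiles were under 20% methylation in all 6 samples, which was 47.2% of all such tiles of the chromosome 7 end. Without this stretch the chromosome 7 end had a mean of 65.8%, still below the 73.2% of the rest of the chromosome, and the difference between all distal tiles and the rest was -2.38 percentage points. The bin was chosen after its values were seen.

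**Figure D4:**
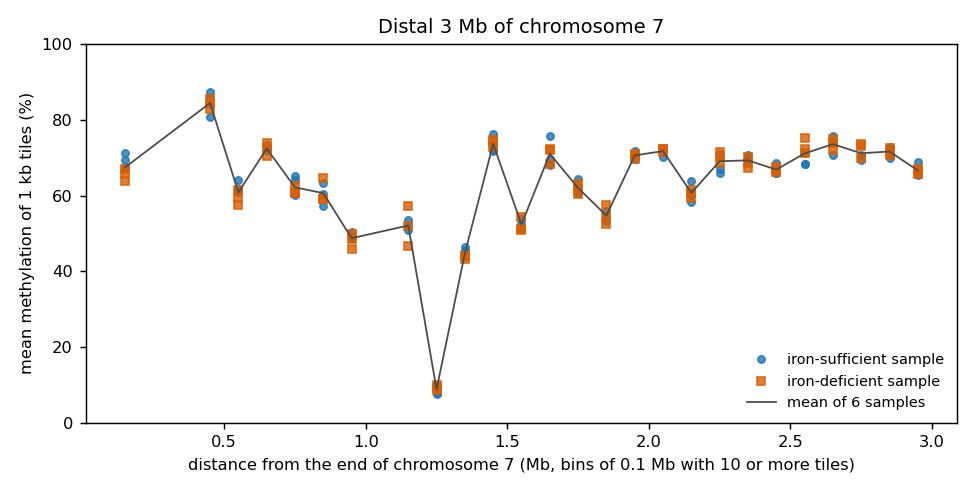
Mean methylation of 1 kb tiles (percent) in bins of 0.1 Mb with 10 or more tiles along the distal 3 Mb of chromosome 7, by distance from the chromosome end in Mb, with points for the 6 samples (blue circles iron-sufficient, orange squares iron-deficient) and a line for their mean. The bin at 1.2 to 1.3 Mb, between the promoters that flank the Hoxc genes, stands at 8.82%, and its neighbour at 1.3 to 1.4 Mb at 44.7%.

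The 6 distal bins with a mean under 50% included 3 of chromosome 7 and 1 each of chromosomes 5, 15 and 20. The second lowest distal bin, 0.3 to 0.4 Mb from the end of chromosome 20 (chr20:54867994-54967993), held the placed promoter of Sim1, which is needed for hypothalamic neurons, and had 34.1% to 37.0% over the 6 samples (32 tiles). A bin 2.1 to 2.2 Mb from the end of chromosome 15 (chr15:107558690-107658689) held the promoter of Zic5, a zinc finger factor of the dorsal neural tube, and had 42.4% to 48.1% (58 tiles). A bin of chromosome 5, 0.7 to 0.8 Mb from its end, had a mean of 46.8% and one of chromosome 7, at 0.9 to 1 Mb, had 48.7%, and the former held no placed promoter. In all, 6 of 373 distal bins had a mean under 50% against 80 of the other autosomal bins, which is 1.61% and 0.489%. At the other extreme a bin of chromosome 11, 0.7 to 0.8 Mb from its end, had 88.1% to 92.3% and was the 5th most methylated of all bins.

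Runs of adjacent tiles of low methylation were also listed. There were 452 distal tiles under 10% methylation in all 6 samples, 2.09% of the distal tiles against 1.45% of the rest, and 13 runs of at least 3 adjacent ones. The longest run, chr10:109652001-109657000, spanned 5 tiles and 272 CpGs, held the placed promoter of Bahcc1, a chromatin protein with a BAH domain, and had 1.16% to 3.90% over the 6 samples. The other 12 runs spanned 3 tiles each. Of these, chr3:170003001-170006000 had 1.23% to 4.23% over 234 CpGs and lay 23.8 kb from the promoter of Ythdf1, a reader of methylated adenosine in RNA, and chr5:171101001-171104000 had 1.91% to 3.25% over 183 CpGs and held the promoter of Wrap73. Gad2 and Sp8 promoters lay in runs of the same length, and a run on chromosome 7 lay inside the Hoxc stretch.

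Most promoters placed in the chromosome ends were unmethylated. Of the 358, 309 (86.3%) had a mean under 10% over the 6 samples, 15 had 10% to under 20%, 6 had 20% to under 50%, and 28 (7.82%) had 50% or more. Outside the ends, 84.8% of 10040 promoters were under 10% and 8.79% at 50% or more. Mean methylation was 9.70%, 9.97% and 10.3% in the iron-sufficient samples and 9.78%, 9.90% and 11.2% in the iron-deficient samples. The difference from promoters outside the ends was -1.26 ± 0.35 percentage points (SD, n = 6, exact sign-flip p = 0.03125), but it was 0.691 when genes with provisional LOC symbols were left out, so no direction is given for promoters. Promoters with under 8 CpGs were not placed, so the levels describe promoters with more CpGs.

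Promoters of neuronal genes were mostly under 10%, as were distal promoters in general. Of 18 genes of synapses, transmitters and their receptors, grouped after values were seen, 16 had a mean under 10% and 11 were under 10% in every sample, and the median was 3.22% beside 2.99% over all 358. Gad2 had 4.05%, 0.240% and 2.12% in the iron-sufficient samples and 1.58%, 0.470% and 1.72% in the iron-deficient samples. Chrna4, the alpha4 subunit of nicotinic acetylcholine receptors, ranged from 0.365% to 4.05% over the samples, and Hrh3, the histamine H3 receptor, from 1.42% to 2.46%. Gabrd, the delta subunit of extrasynaptic GABA-A receptors, stood at 0.594% to 13.3%. Agrn, the organiser of the neuromuscular synapse, had the highest mean of the group at 13.9% and varied from 0.816% to 37.3% between pups within 9 CpGs, with both groups overlapping.

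Methylated promoters included some of genes known for other tissues, picked after their values were seen. Of 4 keratin genes on chromosome 7, Krt82, Krt4 and Krt78 had means of 90.9%, 85.3% and 81.5%, and Krt87 had 34.9%. Pnlip, pancreatic lipase, had 91.2%, Tgm4, a transglutaminase of the prostate, had 89.0%, Cmklr1, the receptor of the adipokine chemerin, had 79.1%, and Dnah11, a dynein of motile cilia, had 74.7%. Other such genes had low values, with 5.09% for Gcgr, the glucagon receptor, 2.69% for Cr2, a complement receptor of B cells, and 2.71% and 12.5% for the cilia genes Spag6l and Cfap74. All 28 promoters of 50% or more together, 13 of them of genes without a named symbol, had a median of 8 CpGs covered in all samples and at most 13, whereas the other distal promoters had a median of 23. Among promoters with 15 or more CpGs covered in all samples, the highest mean was 19.1%. Covered CpGs can be fewer than those of the sequence, as for Cdcp1, which had 7 covered of 19.

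**Figure D5:**
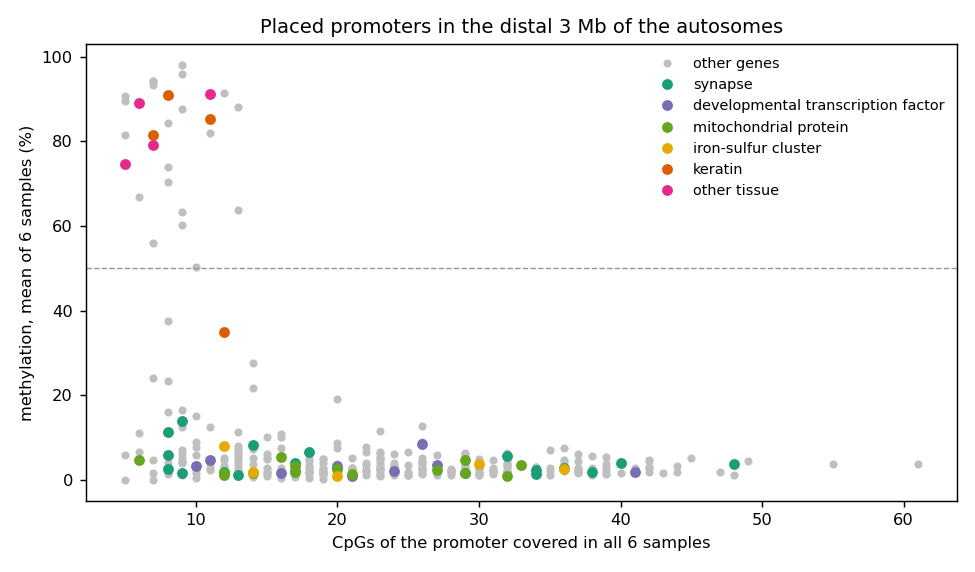
Methylation of the 358 placed promoters of the distal 3 Mb (vertical axis, percent, mean of 6 samples) against the number of their CpGs covered in all samples (horizontal axis), with the gene groups described in the text in colour, the other genes in grey and a dashed line at 50%. The coloured genes were picked after values were seen, with Krt87 at 34.9% below the dashed line and Gcgr, Cr2, Spag6l and Cfap74 among the grey points, and the highest promoter with 15 or more covered CpGs stands at 19.1%.

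Other gene groups, also formed after values were seen, had low means like the 86.3% of all distal promoters under 10% (median 2.99%). A group of 15 genes for mitochondrial proteins, which is not a full list of such genes in the ends, all had a mean under 10% (median 2.23%) and 11 were under 10% in every sample, from means of 1.06% for Tomm20, a subunit of the outer membrane import complex, to 5.35% for Prdx3, a mitochondrial peroxiredoxin. Each of 9 developmental transcription factors had a mean under 10% (median 3.27%), and 6 were under 10% in every sample. Sim1 was highest at 8.59% and ranged from 1.21% to 16.1% over the samples. Hes5, a target of Notch signalling in neural progenitors, had 0.460% to 3.73%. Among 5 genes of iron-sulfur clusters, chosen by name because the diet withheld iron, all had a mean under 10%. Iscu, the scaffold on which iron-sulfur clusters are built, had 1.53%, 1.62% and 1.45% in the iron-sufficient samples and 4.13%, 2.66% and 4.77% in the iron-deficient samples. The groups did not overlap for Iscu, whose means differed by 2.32 percentage points, and this was so for 1 of the 5 genes, beside 9.55% of all placed promoters. edgeR's quasi-likelihood test did not call it (unadjusted p = 0.111, adjusted p = 1). Hscb, a cochaperone of cluster assembly, had overlapping groups and a mean of 1.97% over all samples (edgeR, unadjusted p = 0.0494, adjusted p = 1).

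Mean methylation over all distal tiles overlapped between the diets. It was 70.6 ± 0.29% in the iron-sufficient group and 71.3 ± 0.55% in the iron-deficient group (SD, n = 3 each), a difference of 0.746 percentage points (exact permutation test, two-sided, p = 0.2, with 0.1 the smallest p for 3 against 3). Iron-deficient sample 1, at 70.7%, lay below iron-sufficient sample 3, at 70.9%. In distal tiles of 20 to 39 CpGs the groups did not overlap, with 49.4 ± 0.22% and 50.1 ± 0.39% (SD, n = 3 each, exact permutation p = 0.1), whereas they overlapped in the other 3 classes of CpG density. In the rest of the autosomes the difference was 0.846 percentage points and the groups did not overlap (exact permutation p = 0.1). The difference between these differences was -0.0996 percentage points (exact permutation p = 0.6), so no diet effect particular to the ends was detected, and without iron-deficient sample 1 it was 0.0119.

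In most single ends the diet groups overlapped. The groups did not overlap in 5 of 20 ends (chromosomes 8, 9, 10, 11 and 14), each with the iron-deficient samples higher, beside 44.4% of all 856 windows of 3 Mb. Of the 380 windows with groups apart, 379 had the iron-deficient samples higher, so this direction was not particular to the ends. The smallest adjusted p of the exact permutation test over all 856 windows was 0.225. On chromosome 9 the iron-sufficient samples had 77.4%, 77% and 77% and the iron-deficient samples 78.0%, 78.2% and 78.0%. Chromosome 14 had the largest difference among the 5, at 1.46 percentage points (69.1 ± 0.34% and 70.6 ± 0.60%, SD, n = 3 each). The count of 5 rested on the weighing of tiles and on single pups. It was 0 with reads summed over tiles, 11 without iron-sufficient sample 3 and 14 without iron-deficient sample 1. The share over all windows was taken at the main setting only, and fewer samples separate more easily in any window. These counts are therefore not a result about the ends.

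Single tiles with groups apart were about as frequent at the ends as in all chromosomes. In 1259 distal tiles all iron-deficient samples lay above all iron-sufficient samples and in 873 below, which is 5.83% and 4.04% of the distal tiles beside 5.92% and 4.09% of all tiles. Both directions together were 9.87% of the distal tiles and 10% of all tiles. No distal tile was called by edgeR's quasi-likelihood test at an adjusted p of at most 0.05, and of all 936431 tiles 0 (0%) were called. At an unadjusted p under 0.05, edgeR gave 618 distal tiles (2.86%) beside 3.01% of all tiles, and limma, which also called 0, gave 815 (3.77%) beside 4.38% of all tiles. In simulated tiles, all given the median relative spread between pups, edgeR found 0 of 200 tiles with a planted change of 40 percentage points. It found 113 of 200 with one of 60. Planted changes of 20 and 40 percentage points in a tile of such spread were thus not called among 20000 simulated tiles, 200 of them changed. The real adjustment ran over 936431 tiles with an unknown number changed, and the limit there was not tested. Nearly unmethylated and nearly fully methylated tiles were given no change. Distal tiles of 40 or more CpGs had a median SD of only 2.15 percentage points, and the limit for tiles of such small spread was not tested.

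The distal tiles with the largest differences between non-overlapping groups show the size of single-tile values. At chr9:110870001-110871000 (5 CpGs, 86 to 190 reads per sample) the iron-sufficient samples had 18.5%, 30.0% and 18.6% and the iron-deficient samples 64.4%, 66.8% and 86.0%. At chr3:170809001-170810000 (5 CpGs), 0.254 Mb from the chromosome end, the groups had means of 36.2% and 83.7%, and at chr12:45037001-45038000 (7 CpGs) 24.6% and 72.6%. The chromosome 12 tile varied from 1.6% to 47.6% among the iron-sufficient samples and had 34 reads at its shared CpGs in iron-deficient sample 1, the minimum of 50 reads being set over all listed CpGs. In the other direction, chr4:185874001-185875000 (6 CpGs) fell from 95.8% in the iron-sufficient to 39.7% in the iron-deficient mean, chr17:95049001-95050000 (5 CpGs) from 83.8% to 30.9% and chr4:184425001-184426000 (11 CpGs) from 90.3% to 39.8%. These tiles were chosen on the difference, so no test is given. None held a placed promoter.

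The study drew attention to a window near Usp36. Its tile, chr10:108269001-108270000, lay in the end of chromosome 10, held 38 CpGs and was 2.45 Mb from the chromosome's last position. It had 24.3%, 18.9% and 21.6% in the iron-sufficient samples and 47.0%, 52.0% and 26.9% in the iron-deficient samples. The groups did not overlap, and iron-deficient sample 3 stood near the iron-sufficient samples. The means differed by 20.4 percentage points (21.6 ± 2.7% and 42.0 ± 13.3%, SD, n = 3 each). The study had shown this window for its difference between these same samples. No test is therefore given, and the region described next is not separate support. Inside this tile lay the distal region with the most CpGs among the differentially methylated regions (DMRs) rebuilt from the study's description, chr10:108269686-108269764, with 21 CpGs, a difference of 28.4 percentage points and groups that did not overlap. Reads of the tile were 5054 and 6877 in iron-deficient samples 1 and 2 against 1856 to 2938 in the other 4 samples. The tile was unusually deep, with 181 reads per CpG in iron-deficient sample 2 beside a median of 43.8 over the distal tiles of that sample. The part of this depth in the difference was not tested. The Usp36 promoter printed above was placed 26.3 kb from this tile, and the nearest placed promoter, that of Cyth1, lay 15.3 kb from it. The Usp36 promoter had 0.805%, 13.5% and 3.15% in the iron-sufficient samples and 0.809%, 0.0662% and 0.405% in the iron-deficient samples, so that its groups overlapped (edgeR over all placed promoters, unadjusted p = 0.0398, adjusted p = 1).

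No placed promoter was called different between the diets. The groups did not overlap for 39 of the 358 distal promoters (10.9%), 25 higher and 14 lower in the iron-deficient samples, beside 9.55% of all 10592 placed promoters. edgeR called 0 of all 10592 at an adjusted p of at most 0.05 (0%), and at an unadjusted p under 0.05 it gave 12 distal promoters and 2.57% of all; limma also called 0. Among the 358 distal promoters, that of Cdcp1 had the largest difference in group means and was singled out for it. It stood at 5.22%, 0.840% and 17.8% in the iron-sufficient samples and at 26.2%, 38.1% and 57.1% in the iron-deficient samples, over 7 CpGs and 119 to 478 reads (edgeR, unadjusted p = 0.0658, adjusted p = 1).

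Single CpGs were then called differential by criteria rebuilt from the study's description, without its program. Each CpG had to be read 10 or more times in every sample, its group means, weighted by reads, had to differ by 10 percentage points or more, and an unequal-variance p with the same weights had to be 0.05 or less. This gave 4033 of 122787 distal CpGs (3.28%), beside 3.21% of the CpGs of all chromosomes, and these calls are a description. Of the distal ones 2012 were higher in the iron-deficient samples, 49.9%, and of all differential CpGs 51.2%. With unweighted means 1.44% of the distal CpGs and 1.41% of all CpGs were differential.

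The expansion of such CpGs into differentially methylated regions (DMRs) gave 77 DMRs inside the distal 3 Mb of 2713 in all, 0.627 and 0.579 per 1000 CpGs tested. CpGs under the minimum coverage were passed over, which is the looser reading of the study's rule. The order of these rates was not stable, since a minimum coverage of 20 gave 0.283 and 0.451, unweighted means gave 0.0896 and 0.104, and leaving out iron-sufficient sample 2 gave 0.510 and 0.584. Of the 77, 37 were higher and 40 lower in the iron-deficient samples, beside 1542 higher of all 2713, with median differences of 22.1 and -22.7 percentage points. They lay on 19 of the 20 ends, with 11 on chromosome 5 and 10 on chromosome 12. Their median length was 941 nucleotides with 6 CpGs, where all CpGs tested within a DMR are counted and not only the differential ones. The DMR of the largest decrease had 2 differential CpGs of 5. The longest, of 21893 nucleotides, had 3 of 8. In 59 of the 77 the groups did not overlap, and the same count was not made over all 2713. The DMRs were selected by the same difference, so these values are a description. Under the stricter reading, where DMRs stop at any CpG of too low coverage, there were 15 of 435 in all, and with unweighted means 11 of 488.

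Of the 77 DMRs, 2 overlapped a placed promoter, beside 2.01% of the distal tiles that lay on one. These were the promoters of LOC134479613 on chromosome 7 and of Ss18l1, a neuronal chromatin-remodelling subunit, on chromosome 3. The groups overlapped in both DMRs. That at Ss18l1, of 31 nucleotides, had 18.4%, 24.2% and 0% in the iron-sufficient samples and 0.586%, 2.05% and 2.75% in the iron-deficient samples. At LOC134479613 iron-sufficient sample 2 had 67.5% and iron-deficient sample 1 had 66.9%. The largest increase, chr7:142086661-142086804, was 144 nucleotides long with 5 CpGs and had 32%, 5.48% and 24.3% in the iron-sufficient samples and 82.8%, 99.5% and 61.2% in the iron-deficient samples, with 73 to 255 reads. Next came chr10:109172702-109176053, with a difference of 46.5 percentage points, and chr5:172630085-172630904, with 45.2, which lay 0.641 kb from the promoter of Vwa1, an extracellular matrix protein. The largest decreases were chr1:266207879-266209078, at -37.4 percentage points, chr5:171431646-171431751, at -35.0, and chr10:108244958-108245111, at -34.6. In chr10:108244958-108245111, which lay 8.26 kb from the promoter of Cyth1, both groups shared a value of 65.0%, and in chr5:172630085-172630904 they also overlapped.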

How the data were processed

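WGBS of hippocampi of 6 rat pups was used. Per the methods and labels, the authors trimmed adapters, aligned reads to rn4 with BS Seeker v1 and merged both strands of each CpG, and bcl2fastq is named in the submitters' processing notes. The deposited files give, per CpG and sample, the fraction of methylated reads and the count of reads, with no smoothing and no pooling. Removal of duplicate reads and whether positions start at 0 or 1 are not given in the sources used here, and positions are printed as deposited.

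Methylated reads were recovered as fraction times count. The members and lists were chosen with earlier results of these data known. Tiles needed at least 5 shared CpGs and, over all listed CpGs, 50 reads per sample. Contrasts within samples were tested by exact two-sided sign-flip tests and diets by exact two-sided permutation tests. Labels name no litters, so p-values measure the spread between these samples. Tiles and promoters were tested with edgeR 4.0.16 (quasi-likelihood, methylated and unmethylated counts, sample effects, common dispersion from 20000 tiles, Benjamini-Hochberg over all tiles or promoters) and with limma 3.58.1 as an alternative, in R 4.3.3. Other steps used Python 3.11.15, numpy 2.4.6, scipy 1.17.1, pandas 2.3.3, numba 0.67.0 and matplotlib 3.10.9. Both tests were tested on simulated data of 20000 tiles with 200 changed.

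DMRs were rebuilt from the study's description, not with its program, and CpGs under the minimum coverage were passed over, the looser reading of its rule. A DMR held at least 5 tested CpGs, with gaps up to 20000 nucleotides and up to 5 similar CpGs in a row. Regions named were the 20 ends, the 3 tiles and 3 DMRs with the largest increase and decrease (tiles with groups apart), the 3 longest runs of tiles under 10% (ties by chromosome order) and the Usp36 tile. The promoters, the 100 kb bins, the gene groups and genes named from them were chosen after values were seen. Depth ranged from 432692526 to 780127386 reads summed over CpGs. Alternatives changed the distance, the tile filters, the weighing, the chromosomes, the samples and the tests.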

Additional observations from a re-analysis of the deposited data

How the results depend on the processing

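Lower methylation of the distal tiles kept its direction under all 41 alternatives, from -6.01 percentage points with reads summed over tiles to -1.51 with each chromosome of the same weight. Without one pup at a time it was -2.69 to -2.60 percentage points, where the exact sign-flip p was 0.0625, the smallest that 5 samples allow. The same limit held, without one pup, for the difference in tiles under 20% methylation (1.79 to 1.83 percentage points). It also held for placed promoters (-1.37 to -1.18 percentage points). No p-value is given for CpGs listed per tile and coverage per CpG. Without one pup their ratios were 1.044 to 1.046 and 1.032 to 1.038. The difference in tiles under 20% was 0.919 (5 Mb) to 3.58 (1 Mb) under the other alternatives. The ratio of CpGs listed was reversed to 0.988 in the last 1 Mb and was 1.10 in the last 5 Mb. The promoter difference, a comparison added with all its alternatives after seeing the data, was reversed to 0.272 percentage points within 5 Mb and to 0.691 for genes with symbols other than LOC, and was -4.44 within 1 Mb and -0.654 for promoters with 15 or more shared CpGs. The cause was not tested.

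The diet difference of the distal tiles was 0.517 to 1.05 percentage points without one pup, and its difference from that of the rest was -0.206 to 0.0119, reversed without iron-deficient sample 1. Groups did not overlap in 18.2% to 21.3% of distal tiles without one pup, since fewer samples must separate, and the share over all tiles was not taken there. Ends with groups apart were 0 with reads summed, 3 with at least 100 reads per tile, and 5 to 14 without one pup (11 without iron-sufficient sample 3, 14 without iron-deficient sample 1). The share over all 3 Mb windows was not taken at these settings. Unweighted means gave 1.44% differential CpGs and 11 DMRs of 488. DMRs were 142 of 5353 in all at a minimum coverage of 5, 13 of 730 at 20, 47 of 1667 at a minimum difference of 20 percentage points and 15 of 435 where a CpG of low coverage ended a DMR.

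With the replicate number as a block, the exact p of the diet difference in distal tiles was 0.25, the smallest for 3 pairs, and edgeR gave 2.67% of distal tiles at an unadjusted p under 0.05 and called 0. Deviations of same-numbered samples correlated by -0.00872, -0.00565 and -0.00257 in distal tiles and by 0.00454, 0.00209 and 0.00275 over all autosomal tiles. Samples of different numbers reached 0.0150 in distal tiles. These values are small, and the labels do not say what the numbers stand for, so they were used as names only.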
